A study of Saccharomyces cerevisiae with 6 samples.

Results

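The genes of the tricarboxylic acid (TCA) cycle and of the mitochondrial respiratory chain were examined in budding yeast that overexpressed ACC1, the acetyl-CoA carboxylase gene. They were taken by name from the annotation of each probe: named cycle, chain and lactate dehydrogenase genes, and any symbol that was a number after ACO, IDH, KGD, LSC, SDH, MDH, QCR, CYC, COX or ATP. This gave 28 of the 979 yeast genes on the array. They comprised 15 cycle enzymes or subunits, 8 electron transport proteins, 1 lactate dehydrogenase (DLD1) and 4 assembly factors that the name pattern also takes in. No ATP synthase gene was measured here, and neither were LPD1, MDH1, MDH3, COR1, NDE1, NDE2, CYB2 and INH1. The groups were a strain labelled wild type, with 3 arrays, and the wild type overexpressing ACC1, with 3 arrays. Each array carried biotin-labelled RNA amplified from total RNA in 1 colour. The sources used here give no promoter or plasmid for the overexpression, no medium, carbon source or growth phase, and do not say whether arrays came from separate cultures. Every p-value thus rests on the spread among these 6 arrays, some or all of which may be technical.

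The TCA cycle oxidizes acetyl-CoA in the mitochondrial matrix, and citrate synthase, its entry enzyme, uses the same substrate as the carboxylase that ACC1 encodes. Electrons from the cycle enter the respiratory chain through NADH dehydrogenases and succinate dehydrogenase, then pass through the cytochrome bc1 complex, cytochrome c and cytochrome c oxidase to oxygen. Budding yeast has single-subunit NADH dehydrogenases in place of a proton-pumping complex I. Many of these genes are repressed by glucose and are switched on by the heme-responsive Hap2/3/4/5 complex, of which Hap4 is the regulated subunit.

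Each gene was read by 1 probe in 2 to 4 spots. The probes that the main results rest on are given here 5′ to 3′, with capitals for the longest run of bases that another probe of the array also holds, since a shared run is where signal could be mixed.
SDH1: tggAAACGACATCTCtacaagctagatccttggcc
SDH2: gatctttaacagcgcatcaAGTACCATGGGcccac
SDH3: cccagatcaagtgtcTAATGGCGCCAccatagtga
SDH4: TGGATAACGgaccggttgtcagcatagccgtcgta
KGD1: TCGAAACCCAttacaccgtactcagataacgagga
KGD2: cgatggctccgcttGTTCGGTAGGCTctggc
CIT1: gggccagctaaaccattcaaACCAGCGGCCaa
CIT3: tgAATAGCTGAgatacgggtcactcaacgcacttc
RIP1: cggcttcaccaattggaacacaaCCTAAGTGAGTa
The longest shared run was 12 bases, in SDH1 and KGD2, and those of SDH3 and RIP1 were 11 bases. The citrate synthase isozymes CIT1 and CIT3 had different probes, with shared runs of 10 and 9 bases, each with an unrelated gene. Probes were compared only with each other. SDH1, SDH3, SDH4 and CIT1 have close paralogs elsewhere in the genome, and binding of those transcripts was not examined.

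Before normalization the median yeast spot was 2.17 times as bright in wild type, at 4120 ± 440 against 1900 ± 114 intensity units (SD, n = 3 each), and every member was brighter on each wild type array than on any ACC1 overexpression array. Values below are log2 intensities after quantile normalization, which removes that difference in brightness, so all changes are relative to the other genes of the array. The ACC1 probe, which checks the labels, stood at 11.67, 11.76 and 11.87 in wild type and at 14.00, 14.12 and 14.13 in ACC1 overexpression. On all 6 arrays, 22 of the 28 genes were brighter than the control probes (above their 95th percentile). CIT3 and SDH1 were so on 2 wild type arrays and every ACC1 overexpression array, IDH1 on 1 array of each group, and CYT1, CYC2 and COX10 on none. The median control spot was also brighter in wild type, 1.88 times. Each array held 1 sample and the 2 groups differed in brightness as a whole. Effects of hybridization or scanning therefore cannot be told apart from those of the group. Arrays with the same replicate number shared a position in the layout, with first rows of 1, 63 and 125 for replicates 1, 2 and 3.

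Of the 28 genes, 3 rose in ACC1 overexpression and none fell at an adjusted p of 0.05 (limma, Benjamini-Hochberg over all genes). They were SDH3 and KGD1 among the cycle enzymes and RIP1 in electron transport. Over the whole array 3.47% of genes passed, 2.66% as higher and 0.817% as lower. In 9 of the 28 all ACC1 overexpression values lay above all wild type values, which held for 13.3% of all genes, and in 0 of the 28 they lay below, which held for 11.4% (24.7% in either direction). The median change was 0.13 on the log2 scale, against −0.01 over all genes, and 21 of 28 changes were positive, against 46.4% of all genes. With arrays scaled to a common median in place of quantiles, 61.2% of all genes were positive. RNA of a whole culture was measured, so a large change in some cells and a small change in every cell cannot be told apart.

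**Figure D1:**
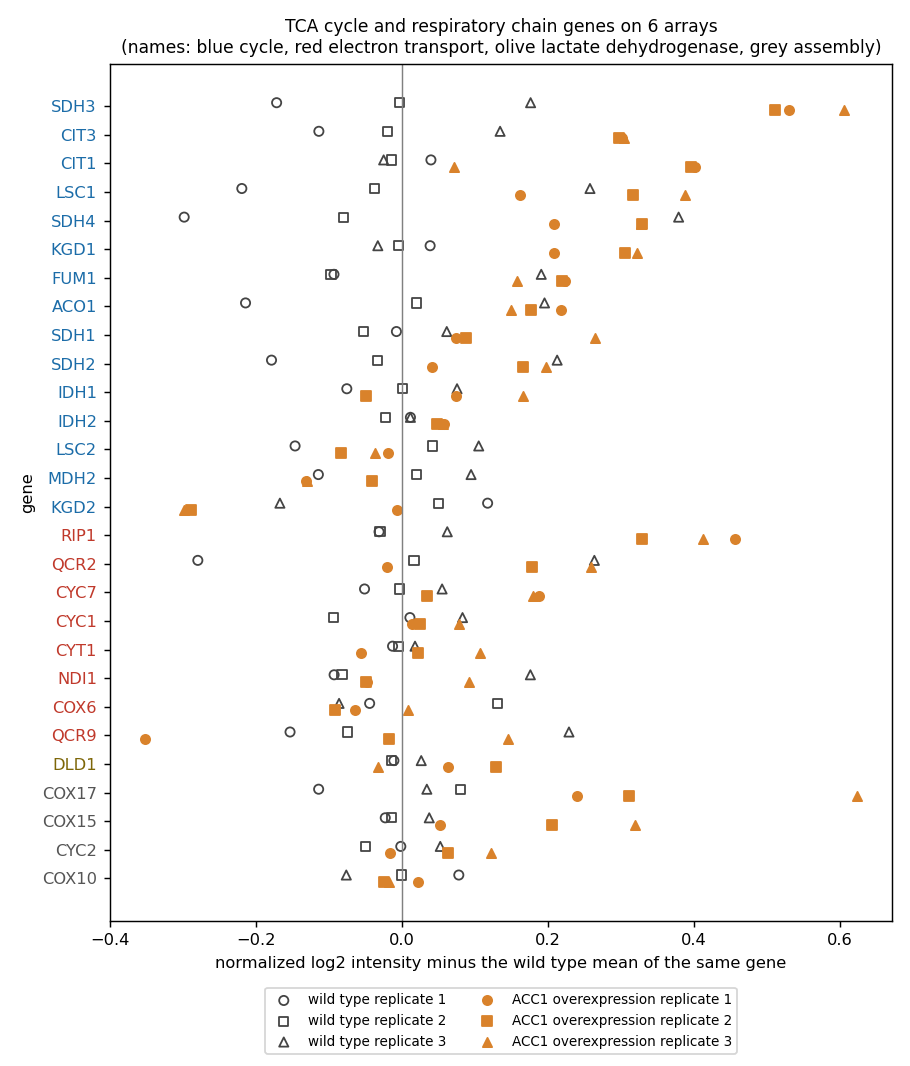
Normalized log2 intensity of each of the 28 genes on each array, as the difference from that gene's wild type mean (horizontal axis); open symbols are the 3 wild type arrays and filled symbols the 3 ACC1 overexpression arrays, with 1 symbol shape per replicate number. SDH3, KGD1 and RIP1 separate the groups, while wild type replicate 3 reaches the ACC1 overexpression values for SDH4, ACO1, FUM1 and SDH2.

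Succinate dehydrogenase oxidizes succinate to fumarate in the cycle and hands the electrons to ubiquinone, and so belongs to both pathways. SDH3 (YKL141W), its cytochrome b subunit, stood at 12.32, 12.49 and 12.67 in wild type replicates 1, 2 and 3 and at 13.02, 13.00 and 13.10 in ACC1 overexpression. The groups did not overlap, although the wild type arrays themselves spread over 0.35. The group means were 12.49 ± 0.17 and 13.04 ± 0.05 (SD, n = 3 each), so SDH3 rose by 0.55 ± 0.09 (standard error), or 1.46-fold (limma adjusted p = 0.0175). Its 2 spots gave 0.51 and 0.59.

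The other subunits had smaller changes that did not pass. SDH4, the second membrane anchor, stood at 12.37, 12.59 and 13.05 in wild type and at 12.88, 13.00 and 13.00 in ACC1 overexpression (log2 difference 0.29, 95% interval −0.04 to 0.62). Its wild type replicate 3 lay above every ACC1 overexpression array. SDH1, the flavoprotein that binds succinate, was 11.10, 11.06 and 11.17 in wild type and 11.18, 11.20 and 11.37 in ACC1 overexpression, a difference of 0.14 with groups that did not overlap. SDH2, the iron-sulfur subunit, differed by 0.14 with overlapping groups. As log2 ratios within an array, SDH3 over SDH1 was higher by 0.41 ± 0.20 in ACC1 overexpression, SDH3 over SDH2 by 0.41 ± 0.09 and SDH3 over SDH4 by 0.26 ± 0.20 (SD over 3 positions). Each of these ratios was higher on all ACC1 overexpression arrays than on any wild type array. An exact two-sided permutation test gave p = 0.1 for each, the smallest value that 3 against 3 arrays allow (0.157 after adjustment over 11 such pairs). All 3 ratios share the values of SDH3. These ratios, and those given below for other enzymes, rest on the same values as the single changes and are not separate support. How often ratios of other gene pairs separate the groups was not examined.

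The alpha-ketoglutarate dehydrogenase complex converts alpha-ketoglutarate to succinyl-CoA. KGD1 (YIL125W), which encodes its dehydrogenase component, stood at 12.45, 12.40 and 12.38 in wild type and at 12.62, 12.72 and 12.73 in ACC1 overexpression. The groups did not overlap. Its mean rose from 12.41 ± 0.04 to 12.69 ± 0.06 (SD, n = 3 each), by 0.28 ± 0.06 (standard error), or 1.21-fold (limma adjusted p = 0.0413). KGD2, the transsuccinylase of the same complex, had the lowest change among the 28 genes, −0.20 (95% interval −0.43 to 0.03). Its values were 12.53, 12.46 and 12.24 in wild type and 12.40, 12.12 and 12.11 in ACC1 overexpression, with overlapping groups. Its 2 spots differed, at −0.29 and −0.10. The ratio of KGD1 to KGD2 was higher by 0.48 ± 0.18 (SD over 3 positions) in ACC1 overexpression, without overlap between groups (exact permutation p = 0.1).

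Citrate synthase joins acetyl-CoA to oxaloacetate. CIT1 (YNR001C), the main mitochondrial enzyme, stood at 11.84, 11.79 and 11.78 in wild type and at 12.21, 12.20 and 11.88 in ACC1 overexpression. The groups did not overlap, but ACC1 overexpression replicate 3 was close to wild type, and the difference of 0.29 did not pass (limma adjusted p = 0.127). Without ACC1 overexpression replicate 3 it was 0.40 (adjusted p = 0.0375), and over all runs that left out an array the adjusted p ran from 0.0375 to 0.358. CIT3 (YPR001W), the minor mitochondrial isozyme, stood at 11.12, 11.21 and 11.37 in wild type and at 11.54, 11.53 and 11.54 in ACC1 overexpression. Its difference of 0.30 (standard error 0.07) just missed the threshold, with an adjusted p of 0.0561 in limma. CIT3 did pass after a normexp background correction (0.66, adjusted p = 0.0461) and with common-median scaling (0.33, adjusted p = 0.0350). The change of CIT1 differed from that of CIT3 by −0.01 ± 0.09 (SD over 3 positions).

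Succinyl-CoA ligase, which follows alpha-ketoglutarate dehydrogenase, was measured for both subunits. LSC1, the alpha subunit, stood at 11.68, 11.86 and 12.16 in wild type and at 12.06, 12.21 and 12.29 in ACC1 overexpression, with overlapping groups (log2 difference 0.29, limma adjusted p = 0.209). LSC2, the beta subunit, differed by −0.05 (95% interval −0.21 to 0.12). The ratio of LSC1 to LSC2 within an array was higher by 0.34, with groups that did not overlap (exact permutation p = 0.1). Of the remaining cycle enzymes, fumarase (FUM1) differed by 0.20 and aconitase (ACO1) by 0.18, and in both wild type replicate 3 lay within or above the ACC1 overexpression values. Isocitrate dehydrogenase, the NAD-dependent enzyme, had 2 measured subunits. IDH2 stood at 11.84, 11.81 and 11.84 in wild type and at 11.89, 11.88 and 11.88 in ACC1 overexpression, a difference of 0.05 (95% interval −0.06 to 0.17) without overlap. IDH1, above the control probes on 1 array of each group, differed by 0.06. MDH2, the cytosolic malate dehydrogenase of gluconeogenesis and so outside the mitochondrial cycle, differed by −0.10 (95% interval −0.26 to 0.05).

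In electron transport 1 of 8 genes passed. RIP1 (YEL024W), the Rieske iron-sulfur subunit of the cytochrome bc1 complex, stood at 11.42, 11.42 and 11.52 in wild type and at 11.91, 11.78 and 11.87 in ACC1 overexpression. All ACC1 overexpression values exceeded all wild type values. Its mean rose from 11.45 ± 0.05 to 11.85 ± 0.06 (SD, n = 3 each), by 0.40 ± 0.06 (standard error), or 1.32-fold (limma adjusted p = 0.0163). Its 2 spots gave 0.38 and 0.41. After the normexp correction the difference was 0.72.

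The other measured subunits of that complex did not pass. QCR2, a core subunit, was 11.40, 11.69 and 11.94 in wild type and 11.66, 11.86 and 11.94 in ACC1 overexpression, so the wild type arrays spanned all ACC1 overexpression values (log2 difference 0.14, 95% interval −0.16 to 0.43). QCR9, a small subunit, was 14.918, 14.997 and 15.301 in wild type and 14.720, 15.055 and 15.218 in ACC1 overexpression, a difference of −0.07 with overlapping groups. QCR9 had 1 saturated spot on 1 array, so its value there is a lower limit. Cytochrome c1 (CYT1) stayed within the range of the control probes on every array. The log2 ratio of RIP1 to QCR2 was higher by 0.26 ± 0.08 in ACC1 overexpression (SD over 3 positions), with groups that overlapped (exact permutation p = 0.3). The ratio of RIP1 to QCR9 was higher by 0.47 ± 0.20 and that of RIP1 to CYT1 by 0.38 ± 0.14. In both the groups did not overlap (exact permutation p = 0.1 for each).

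Of the electron transport genes outside that complex none passed. Succinate dehydrogenase, which also lies upstream of it, was counted above with the cycle enzymes, where SDH3 passed. The internal NADH dehydrogenase NDI1 differed by −0.00 (95% interval −0.19 to 0.19) and the cytochrome c oxidase subunit COX6 by −0.05 (−0.21 to 0.11). The aerobic cytochrome c gene CYC1 differed by 0.04 (−0.10 to 0.18) and its hypoxic isoform CYC7 by 0.13 (−0.01 to 0.28). These intervals leave room for changes of up to 0.28 on the log2 scale in CYC7. The differences of NDI1, COX6, CYC1 and QCR9 took the opposite sign with common-median scaling. DLD1, the D-lactate dehydrogenase that passes electrons to cytochrome c, was 13.20, 13.20 and 13.24 in wild type and 13.28, 13.34 and 13.18 in ACC1 overexpression, a difference of 0.05. Its 2 spots differed in sign, at −0.09 and 0.20.

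Among the 4 assembly factors none passed. COX17, the copper chaperone for cytochrome c oxidase, stood at 12.59, 12.79 and 12.74 in wild type and at 12.95, 13.02 and 13.33 in ACC1 overexpression. The groups did not overlap, and the difference of 0.39 (standard error 0.10) had an adjusted p of 0.0784 in limma. COX15, which acts in heme A synthesis for that oxidase, was 11.31, 11.32 and 11.37 in wild type and 11.38, 11.54 and 11.65 in ACC1 overexpression, a difference of 0.19 (adjusted p = 0.192 in limma) without overlap. COX10, the heme A farnesyltransferase, and CYC2, which takes part in attaching heme to cytochrome c, were not above the control probes. COX10 read 10.82, 10.74 and 10.67 in wild type and 10.77, 10.72 and 10.73 in ACC1 overexpression, and CYC2 read 10.67, 10.62 and 10.72 against 10.65, 10.73 and 10.79.

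**Figure D2:**
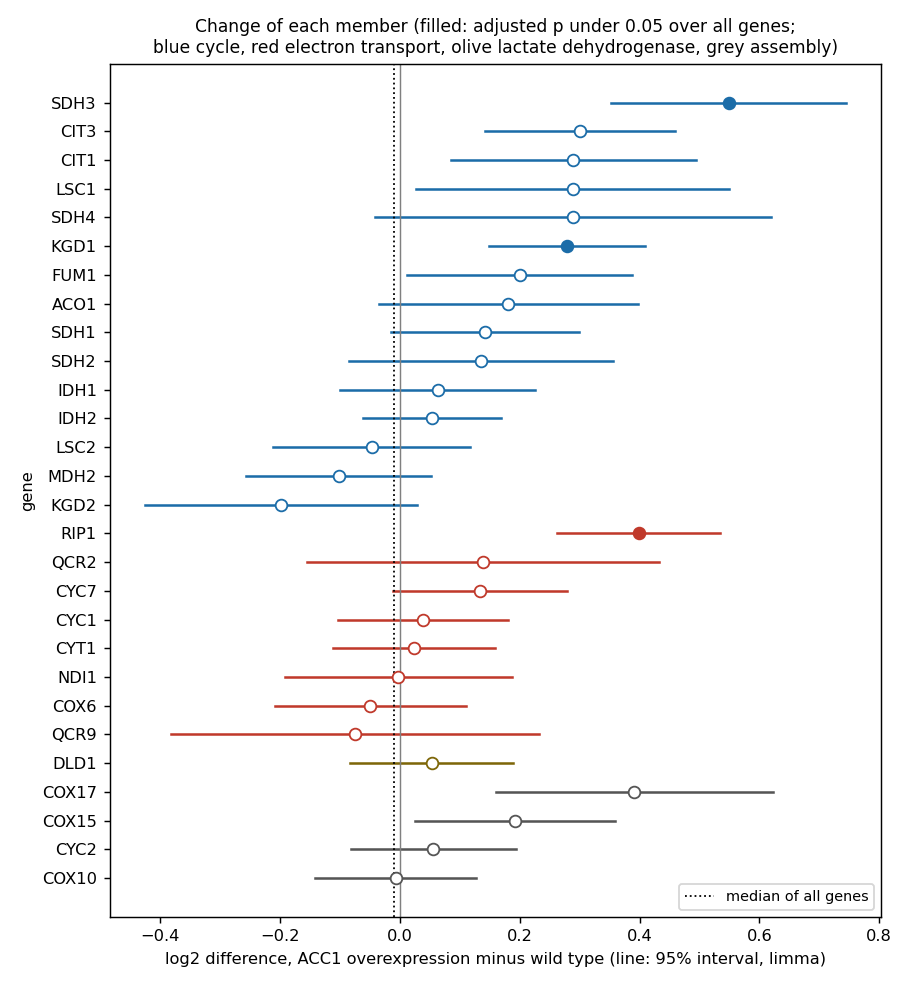
Log2 difference between ACC1 overexpression and wild type (horizontal axis) for each gene, with its 95% interval from the fit over all 979 genes; filled points passed an adjusted p of 0.05, and the dotted line is the median of all genes, −0.01. Most cycle enzymes lie right of that line, and RIP1 stands apart from the other electron transport genes.

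The classes were then set side by side. The median change of the 15 cycle enzymes was 0.18, with 12 positive changes and 2 genes past the threshold. That of the 8 electron transport genes was 0.03, with 5 positive (7 with common-median scaling) and 1 past the threshold. The difference between these medians was 0.15. It describes these genes only and carries no test, since genes of a class are not replicates. It depended on where succinate dehydrogenase was counted: with its 4 subunits moved to electron transport the difference was 0.047, while the median of the remaining 11 cycle enzymes was still 0.18. Of the genes above the control probes on every array of at least 1 group, 14 cycle enzymes had a median of 0.19 and 7 electron transport genes 0.04.

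Within array positions the class medians separated at 2 of the 3. The cycle median was 0.22, 0.20 and 0.04 at positions 1, 2 and 3, and the electron transport median 0.02, 0.05 and 0.04. The difference between classes was therefore 0.20 and 0.15 at positions 1 and 2 and 0.0021 at position 3. Of the 15 cycle enzymes, 13, 11 and 8 were higher in ACC1 overexpression at positions 1, 2 and 3, and 7 were higher at all 3. Of the 8 electron transport genes, 5, 7 and 4 were higher at these positions and 2 at all 3, so at position 2 a larger share of electron transport genes than of cycle enzymes was higher. Among all 979 genes 506, 461 and 456 were higher at positions 1, 2 and 3, and 22.4% were higher at all 3. SDH3 differed by 0.70, 0.51 and 0.43, KGD1 by 0.17, 0.31 and 0.35, and RIP1 by 0.49, 0.36 and 0.35, so these genes were higher at each position.

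**Figure D3:**
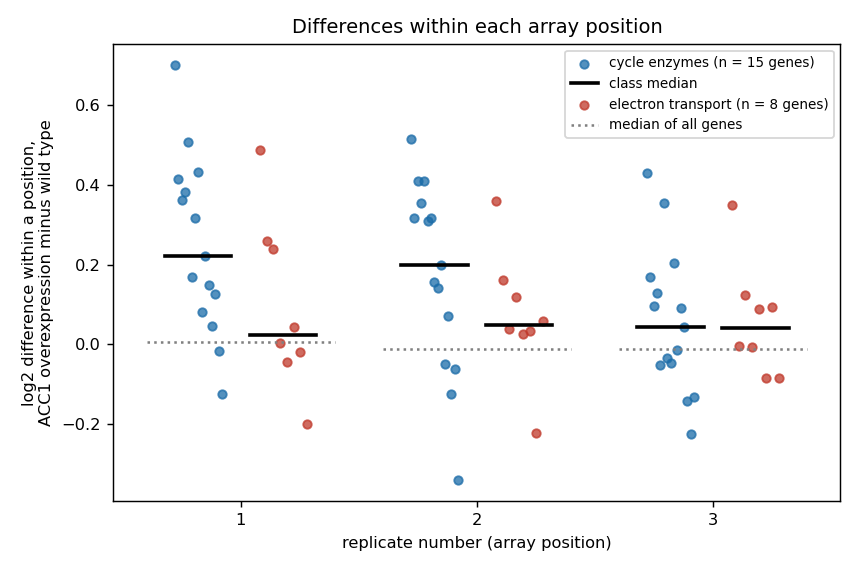
Log2 difference between the ACC1 overexpression and the wild type array of the same replicate number (vertical axis), for 15 cycle enzymes and 8 electron transport genes; black bars are class medians and dotted lines the median of all genes. The cycle median is 0.22 and 0.20 at positions 1 and 2 and 0.04 at position 3, where the electron transport median is also 0.04.

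The wild type arrays themselves differed in the same genes. Wild type replicate 3 lay above wild type replicate 1 for 12 of 15 cycle enzymes, by a median of 0.25, which is more than the median change between groups, and for 7 of 8 electron transport genes, by a median of 0.10. Over all genes that median was 0.02. SDH4 differed by 0.68 and QCR2 by 0.54 between these 2 wild type arrays. KGD1, by contrast, differed by −0.07 and RIP1 by 0.09. The part of this wild type spread in the class medians was not tested; without wild type replicate 1 or 3 the cycle median was 0.14 or 0.26.

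**Figure D4:**
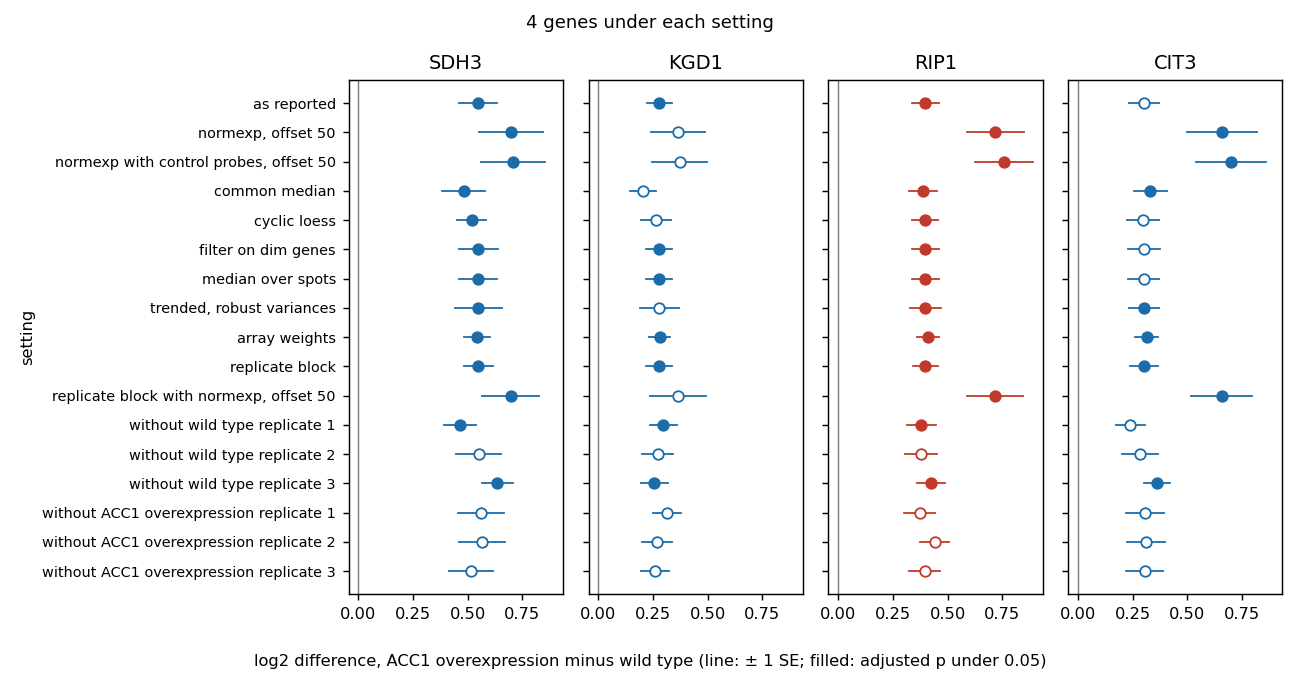
Log2 difference between groups (horizontal axis, with ± 1 standard error) of SDH3, KGD1, RIP1 and CIT3 under each processing setting and with each array left out; filled points passed an adjusted p of 0.05. The differences stay positive throughout, and none of these 4 genes passes without wild type replicate 2 or without any 1 of the ACC1 overexpression arrays.

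The calls rested on few arrays. When wild type replicate 2 or ACC1 overexpression replicate 1 or 2 was left out, 0 of the 28 genes passed, and when ACC1 overexpression replicate 3 was left out only CIT1 did. Over all 979 genes 5, 5, 4 and 7 passed in those runs, in the same order, against 34 with every array. In those runs limma's adjusted p lay between 0.0551 and 0.0984 for SDH3 and RIP1, while the differences lay between 0.52 and 0.57 for SDH3 and between 0.37 and 0.44 for RIP1. Without wild type replicate 3, 9 of the 28 genes passed, among them LSC1, ACO1, FUM1, SDH4, CIT3 and COX17. In that run 123 of all 979 genes passed. KGD1 also missed the threshold after normexp (0.36, adjusted p = 0.121) and with common-median scaling (0.20, adjusted p = 0.0671). Its adjusted p was 0.0827 with cyclic loess and 0.0899 when variances were fitted as trended and robust. SDH3 and RIP1 passed under all 10 settings that kept all arrays, and KGD1 under 4 of these 10.

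Genes that feed, drain or regulate these pathways were described from 5 lists. Over the whole array 2.66% of genes passed as higher and 0.817% as lower. Of 6 measured genes around pyruvate, PYC1, the pyruvate carboxylase that makes oxaloacetate for the cycle, rose by 0.49 (limma adjusted p = 0.0193) and 5 did not pass. Its values were 13.04, 13.17 and 13.35 in wild type and 13.69, 13.63 and 13.71 in ACC1 overexpression. LAT1, the acetyltransferase of pyruvate dehydrogenase, stood at 0.28 without overlap between groups (limma adjusted p = 0.0784). The glutamate dehydrogenase genes GDH1 and GDH3, whose enzymes draw on alpha-ketoglutarate, stood at 0.49 and 0.47 (adjusted p = 0.0784 and 0.0994 in limma). In neither gene did the groups overlap. Wild type replicate 3 lay above wild type replicate 1 by 0.59 for GDH1 and 0.62 for GDH3, more than these differences. Within positions 1, 2 and 3 GDH1 differed by 0.72, 0.52 and 0.25 and GDH3 by 0.70, 0.54 and 0.17. GDH1 and GDH3 are paralogs, each with a probe of its own. None of 9 genes of cycle-linked isozymes and the glyoxylate pathway passed, nor did any of 4 mitochondrial carriers, where ODC1, the oxodicarboxylate carrier, stood at 0.19 and the carnitine carrier gene CRC1 at 0.09.

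Of 10 measured regulators 2 rose, where 2.66% of all genes passed as higher. MOT3, a repressor that acts with Rox1 on hypoxic genes, was 11.61, 11.59 and 11.67 in wild type and 11.90, 11.87 and 11.96 in ACC1 overexpression (log2 difference 0.29, limma adjusted p = 0.0393). After normexp it stood at 0.49 and did not pass (adjusted p = 0.0568). ROX1, the heme-dependent repressor of hypoxic genes, was 11.05, 11.14 and 11.20 in wild type and 11.45, 11.37 and 11.41 in ACC1 overexpression (0.28, limma adjusted p = 0.0413), and was above the control probes on 2 wild type arrays. Its difference after normexp was 0.66. HAP4 stood at 0.22 with no overlap between groups and did not pass (limma adjusted p = 0.141); the HAP genes were singled out after their values were seen. The genes of its partners HAP2, HAP3 and HAP5 and of the heme-responsive activator HAP1 did not pass, with differences from −0.28 for HAP3 to 0.00 for HAP1.

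In the list for ubiquinone and heme, 2 of 14 genes fell and none rose, with a list median of −0.08. Over the whole array 0.817% of genes passed as lower. In 4 of the 14 all ACC1 overexpression values lay below all wild type values, which held for 11.4% of all genes. CCP1, the mitochondrial cytochrome c peroxidase, was 14.00, 14.15 and 14.11 in wild type and 13.78, 13.74 and 13.74 in ACC1 overexpression (−0.33, limma adjusted p = 0.0282). CCP1 passed under 4 of the 10 settings that kept all arrays, and with a common median it stood at −0.14 (adjusted p = 0.442). HEM1, which starts heme synthesis, was 12.04, 12.02 and 12.09 in wild type and 11.76, 11.74 and 11.83 in ACC1 overexpression (−0.27, limma adjusted p = 0.0413). HEM1 passed under 7 of these 10 settings, and after normexp it stood at −0.43 (adjusted p = 0.0918). Like SDH3 and KGD1, the genes PYC1, MOT3, ROX1, CCP1 and HEM1 did not pass without wild type replicate 2 or without any 1 of the ACC1 overexpression arrays, and ROX1 did not without wild type replicate 1 (adjusted p = 0.0738).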

How the data were processed

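Each array's scanner table gives, per the file headers, a median foreground intensity for 2240 spots and no background column. Scanner software and any earlier background step: not given in the sources used here. Intensities were taken to log2, quantile normalized over the yeast spots without the 26 control probes, and averaged per gene, with no background subtraction. All 979 systematic names were found in the RefSeq R64 gene table, used for names only. Groups came from the sample titles and were compared with limma 3.58.1 (lmFit, eBayes) in R 4.3.3, with two-sided tests adjusted over all 979 genes (Benjamini-Hochberg). Of these, 34 passed 0.05, 26 higher and 8 lower. A score of unstated scale fills the 906 rows of the value table the authors deposited, with column medians from −0.15 to −0.06. Across rows the score did not correlate with the log2 intensity of the probe of the same number (r from −0.053 to −0.035). A score on another scale could give such values even with matching numbers, so they cannot decide whether the numbers match. Which genes the rows hold stayed unclear, and the value table was not used for genes. Precision is limited by the number of arrays. A member counted as measured near background when it did not exceed the 95th percentile of the control probes.

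The members and gene lists were chosen with earlier results of these data known. Values per array are given for members past the threshold, for those whose groups did not overlap, and for the next largest change per direction and class. From the related lists, genes past the threshold and the 2 largest changes are named. Alternatives covered the background correction (normexp with an offset of 50), normalization, dim genes, spots, variances, array weights, the replicate block, the threshold, the classes and each array left out. The fit was tested on simulated data with independent noise of the same size for every gene. Differences between arrays that many genes share, as among the wild type arrays, were not simulated.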

Additional observations from a re-analysis of the deposited data

How the results depend on the processing

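With common-median scaling 74 genes passed in place of 34, of which 25 were shared. Array weights gave 176 genes and 9 members in place of 3, and an adjusted p of 0.10 gave 68 and 5. Leaving out an array gave between 4 and 123 genes and between 0 and 9 members. The members passing were 3 under common-median scaling, normexp and trended, robust variances too, with CIT3 in place of KGD1. A replicate block gave 121 genes and 7 members, or 142 and 6 after normexp. CIT1, CIT3, LSC1, COX17, LAT1, GDH1 and GDH3 passed in both block fits and HAP4 in the first, and KGD1 and CCP1 missed in the second. The deviations of same-numbered arrays correlated at 0.47, −0.02 and 0.39 across genes, and wild type replicate 2 did not correlate best with its own number, so the numbers were not taken to pair the samples. The cycle median was 0.28 with normexp, 0.29 with normexp on control probes, and between 0.14 and 0.26 without 1 array, against 0.18. The electron transport median, 0.03 as reported, was 0.083 and 0.066 with these corrections, 0.092 with common-median scaling, 0.012 with cyclic loess, 0.069 with array weights, and between 0.0022 and 0.080 without 1 array. The cycle median minus the electron transport median, 0.15 as reported, was 0.047 with succinate dehydrogenase counted in electron transport and between 0.12 and 0.19 without 1 array. This difference was 0.20 with normexp, 0.22 with normexp on control probes, 0.11 with common-median scaling and 0.099 with array weights. The cause of these shifts was not tested. Common-median scaling put the median of all genes at 0.05. For 40 named genes, 636 values came from the alternatives: 522 kept direction and side of the threshold, 42 moved past it, 49 no longer passed and 23 changed sign, none of them past the threshold. With common-median scaling the sign turned for CYC1 (−0.059), COX6 (0.053), QCR9 (0.064), COX10 (0.15) and NDI1 (0.0062). With cyclic loess it turned for CYC1 (−0.020) and COX6 (0.017), and NDI1 stood at 0.011 with normexp, with or without the block, at 0.013 with control probes and at 0.040 with array weights. Without 1 array, both signs occurred for LSC2 (−0.12 to 0.0064), QCR2 (−0.0010 to 0.27), CYC1 (−0.0083 to 0.076), CYT1 (−0.018 to 0.065), NDI1 (−0.049 to 0.084), COX6 (−0.10 to 0.017), QCR9 (−0.19 to 0.069) and COX10 (−0.045 to 0.032). Folds of genes near the control probes are limited by their low signal over background. Counting ATP synthase with electron transport was not run, since no such gene was measured.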
